A study of Homo sapiens with 12 samples.

Results

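The regions described here are 289 CCGG-dense stretches of 1 kb in which HpaII cut little DNA of untreated 769 cells and much DNA of 769 cells given ascorbic acid (AA). They were taken from fixed 1 kb windows of chromosomes 1 to 22 whose running site numbers span at least 10 CCGG sites and in which none of the 6 MspI libraries had fewer than 10 tags. Of 431754 windows with a listed site, 10684 met both conditions, and the 289 are 2.7% of these. R is the share of the HpaII tags of a DNA sample that lies in a window divided by the share of its MspI tags there, both out of nuclear tags, so that 1 is the genome-wide mean. A window was taken when R was 0.5 or more in both AA samples of 769 and 0.1 or less in the 769 control, and is called opened below. These R values chose the windows and are given as a description, without a test. The study compared 2 clear cell renal cell carcinoma (ccRCC) lines, labelled 769 and 786, by HELP-tagging of genomic DNA. The groups are 769 with AA (2 DNA samples), the untreated 769 control (1 sample), 786 with AA (2 samples) and the untreated 786 control (1 sample). Each DNA sample was digested with HpaII and, in a separate reaction, with MspI, which gives 12 libraries. The labels give no dose, time or culture for the AA samples, so the replicates may be technical and the spread between them has an unstated source.

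Most CpG dinucleotides of the human genome carry 5-methylcytosine, while CpG islands, the CpG-rich stretches that hold many gene starts, are mostly free of it. In cancer a subset of islands gains methylation. TET enzymes oxidise 5-methylcytosine to 5-hydroxymethylcytosine and further products, which can lead back to plain cytosine, and ascorbic acid is a cofactor that raises their activity. HpaII is blocked by either modification of the inner cytosine of CCGG, and MspI is not. A low R therefore reads modified sites, or sites that HpaII left uncut for another reason, and a high R reads unmodified ones.

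The first view of these regions is of the gene starts in them. No annotation of the files' build, hg19, was used here, so RefSeq promoter sequences of GRCh38.p14, each of 300 bases with 250 before the gene start and 50 after it, were placed on the files by the spacing of their CCGG sites. At least 4 listed sites had to match at a single place. Of 35116 promoters, 8329 held 4 CCGG or more and 6839 were placed and used, with 99.8% of single placements on the annotated chromosome. In all, 42 placed promoters of 39 genes lay wholly in an opened window. The 6 below are shown because their CCGG sites, in capitals, carry the tags described next. Coordinates are those of GRCh38.p14, and every sequence reads 5′ to 3′ on the strand of its gene. PROM1 encodes prominin-1, the CD133 surface protein, and the stretch shown is chr4:16083680-16083979 on the minus strand. CHIC2 encodes a palmitoylated membrane protein (chr4:54064556-54064855 on the minus strand). MSRB3 encodes a methionine sulfoxide reductase (chr12:65278707-65279006 on the plus strand). EGFL7 encodes a secreted protein of endothelium (chr9:136658606-136658905 on the plus strand). ATP6V0C encodes the proteolipid subunit of the vacuolar proton pump (chr16:2513476-2513775 on the plus strand). HES5 encodes a repressor that is a target of Notch signalling (chr1:2530214-2530513 on the minus strand).
PROM1: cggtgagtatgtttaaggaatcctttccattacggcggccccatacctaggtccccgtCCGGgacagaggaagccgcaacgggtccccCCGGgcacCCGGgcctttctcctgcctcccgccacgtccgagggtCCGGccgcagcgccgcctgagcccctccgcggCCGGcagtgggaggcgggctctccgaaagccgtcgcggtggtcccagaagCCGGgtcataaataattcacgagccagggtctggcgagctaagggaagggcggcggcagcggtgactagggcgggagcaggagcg
CHIC2: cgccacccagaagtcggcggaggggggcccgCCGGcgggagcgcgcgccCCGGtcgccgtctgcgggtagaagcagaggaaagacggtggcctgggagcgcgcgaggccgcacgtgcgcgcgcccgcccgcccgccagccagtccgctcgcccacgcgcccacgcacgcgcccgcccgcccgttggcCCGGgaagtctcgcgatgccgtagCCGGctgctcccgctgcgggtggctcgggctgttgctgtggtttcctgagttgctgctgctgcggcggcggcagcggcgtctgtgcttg
MSRB3: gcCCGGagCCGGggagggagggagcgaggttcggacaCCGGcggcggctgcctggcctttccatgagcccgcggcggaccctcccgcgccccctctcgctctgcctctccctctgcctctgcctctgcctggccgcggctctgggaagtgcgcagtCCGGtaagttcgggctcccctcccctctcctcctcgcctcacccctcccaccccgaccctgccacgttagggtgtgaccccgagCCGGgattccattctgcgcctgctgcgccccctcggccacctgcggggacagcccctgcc
EGFL7: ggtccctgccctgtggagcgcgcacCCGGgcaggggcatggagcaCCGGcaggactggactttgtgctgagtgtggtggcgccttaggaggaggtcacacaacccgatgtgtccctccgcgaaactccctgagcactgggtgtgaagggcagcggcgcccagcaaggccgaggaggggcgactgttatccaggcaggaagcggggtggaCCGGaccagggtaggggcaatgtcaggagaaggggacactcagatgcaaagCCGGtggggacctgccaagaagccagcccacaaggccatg
ATP6V0C: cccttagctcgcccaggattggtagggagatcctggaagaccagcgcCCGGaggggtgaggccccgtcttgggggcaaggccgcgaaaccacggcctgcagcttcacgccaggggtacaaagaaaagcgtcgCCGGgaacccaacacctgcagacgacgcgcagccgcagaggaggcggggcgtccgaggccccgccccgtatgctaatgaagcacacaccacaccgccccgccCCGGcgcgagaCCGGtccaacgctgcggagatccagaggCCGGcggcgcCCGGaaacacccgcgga
HES5: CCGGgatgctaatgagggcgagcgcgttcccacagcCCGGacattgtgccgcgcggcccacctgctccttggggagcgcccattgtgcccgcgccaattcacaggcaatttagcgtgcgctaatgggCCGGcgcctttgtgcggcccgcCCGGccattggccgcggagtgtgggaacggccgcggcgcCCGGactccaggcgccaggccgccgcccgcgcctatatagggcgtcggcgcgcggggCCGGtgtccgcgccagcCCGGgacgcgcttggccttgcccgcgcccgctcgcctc

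The CHIC2 promoter shows the plainest case, at a single one of its 4 CCGG sites. At bases 32, 50 and 188 the 769 AA samples had at most 1 HpaII tag and the 769 control had no MspI tag. In AA replicate 2 all 86 HpaII tags of the CHIC2 window lay at base 212. The site at base 212 of the stretch was cut by HpaII with AA in 769, at 138 and 86 tags, and gave 0 in the 769 control. MspI cut this site in the same DNA, with 39, 19 and 152 tags, so the control had the site and MspI reached it. The 786 AA samples held 164 and 93 HpaII tags there and the 786 control 0, at 62 MspI tags. Over the whole CHIC2 window an R of 1 would give that control 1.32 HpaII tags, so its 0 at this site says little. In the PROM1 promoter the site at base 97 held 50 and 91 HpaII tags in the 769 AA replicates and 0 in the 769 control, and the site at base 216 held 1 and 60 with AA and 0 in the control. At base 97 MspI gave 0 and 1 tags with AA and 0 in the control, so that site has no MspI measure of its own and R is read over the window. At base 216 MspI gave 17 and 0 tags with AA and 2 in the control. MspI gave that control at most 2 tags at any of the 6 PROM1 sites shown, so its 0 hardly measures HpaII cutting there. Most MspI tags of the control in the PROM1 window lay at sites outside this stretch, with 77 and 113 at 2 of them. The site at base 241 of the MSRB3 promoter held 80 and 36 HpaII tags with AA and 0 in the 769 control, which had 84 MspI tags at it. Of its 5 sites, that at base 38 was the one with HpaII tags in the 769 control, with 58 and 64 tags in the AA samples and 4 in the control.

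The AA replicates differed at the remaining 3 promoters too, as they did at base 216 of PROM1. The EGFL7 sites at bases 210 and 261 held 54 and 89 HpaII tags in AA replicate 1 and 7 and 0 in the other, with no tag in the 769 control. The 6 ATP6V0C sites held 13, 16, 1, 4, 7 and 10 HpaII tags in AA replicate 1, while AA replicate 2 had 61 at base 48, 3 at base 235 and 0 at the others. All 6 were at 0 in the 769 control, where MspI gave 28 tags at base 133, 16 at base 235 and 0 at the others. Only at these 2 sites does the control's 0 have MspI tags beside it. In HES5, AA replicate 1 had 42, 20 and 7 HpaII tags at the last 3 of 7 sites. AA replicate 2 had 1 tag at the last site, and the 769 control had 0 throughout. MspI gave that control at most 1 tag at any of the 7 sites, so its 0 does not measure HpaII cutting there. Over the whole HES5 window the 769 control held 8 HpaII tags, all at a single site. The high R of replicate 2 in the HES5 window came mostly from a single site outside this promoter, which held 88.2% of its 51 HpaII tags in the window. Over all placed promoters, 224 listed CCGG sites lay in opened windows. HpaII tags were found at 142 and 74 of them in the 769 AA samples and at 24 in the 769 control, and at 122, 146 and 21 in the AA replicates and the control of 786.

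The libraries behind these values differ in depth and in how many sites they reach. The HpaII libraries of 769 held 6837530 and 2923393 nuclear tags with AA and 5686576 in the control, at 279974, 136539 and 107494 listed sites. Those of 786 held 10072060 and 3879879 with AA and 170479 in the control. The MspI libraries held 3705044 to 12155828 nuclear tags. HpaII gave no tag at all in 3.44% and 11.5% of the 10684 dense windows in the 769 AA replicates and in 13.5% in the 769 control. The control thus reached the fewest sites of the 3 libraries of 769 with more tags than AA replicate 2, and the part of this in the 289 opened windows was not tested. Intervals and floors cover counting error only, since PCR copies of a tag cannot be told from separate molecules.

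In 769, the opened windows had about the genome-wide mean or more of HpaII tags with AA and nearly none in the control. The median R was 1.73 and 1.66 with AA and 0.0194 in the control, with quartiles of 1.01 and 2.95, 0.934 and 3.24, and 0 and 0.0551. Over all dense windows the median R was 2.34 and 1.9 with AA and 2.28 in the control. At the median, the opened windows thus stood below dense windows at large in both AA samples. HpaII tags of the opened windows summed to 42258, 19982 and 722, and the MspI tags to 18288, 13501 and 47680. The median window held 121 and 59 HpaII tags with AA and 1 in the control, where an R of 1 would have given 68.3. In 116 windows (40.1%) the control had 0 tags, and in 209 it had 3 or fewer. The 95% Clopper-Pearson interval of the control R ended below 0.5 in 287 windows, and below both AA intervals in 287 that are not all the same ones. These intervals are of the values that chose the windows and are a description. The edgeR quasi-likelihood fit called 110 of the 289 higher with AA in 769 at an adjusted p under 0.05, beside 1.67% of all 9977 windows tested in that direction. The rule used this contrast, so the count is given only for reference.

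**Figure D1:**
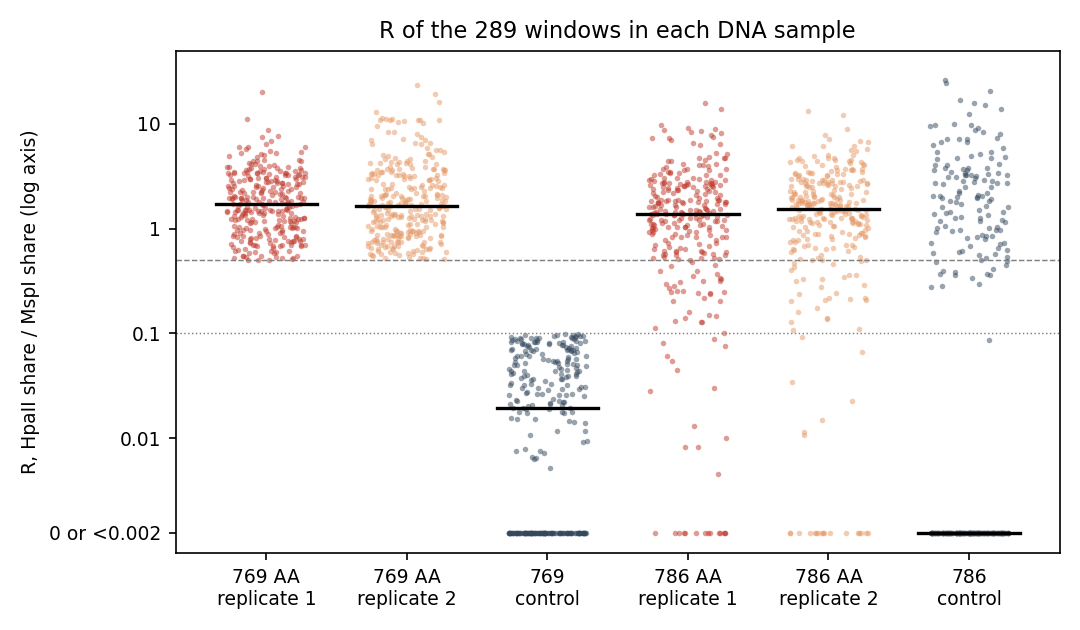
R of each of the 289 opened windows (points, random spread sideways) in the 6 DNA samples on a log axis, with the median as a black bar, values under 0.002 drawn on 1 line at the bottom, and the limits of 0.5 (dashed) and 0.1 (dotted) that were applied in 769. The 769 values are separated by these limits, while the 786 AA medians of 1.37 and 1.53 and the wide 786 control, with 150 windows at 0 tags, were not used to choose the windows.

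The AA replicates of 769 did not order the windows alike. Replicate 1 was the higher in 149 windows, the values differed by more than 2-fold in 134 and by more than 4-fold in 45, and the median ratio of the larger to the smaller was 1.86. Across the 289 windows the Spearman rho between replicates was 0.253, against 0.521 over the 10684 dense windows, as a description over windows that share their libraries and whose range the rule cut. For the AA replicates of 786 it was 0.551 over the opened windows and 0.575 over all dense ones. Of the 1979 dense windows with R of 0.1 or less in the 769 control, 497 had R of 0.5 or more in the first AA sample and 367 in the other, and the 289 are those with both. Over all dense windows, 244 (2.28%) had R of 0.5 or more in 769 AA replicate 1 and 0.1 or less in 769 AA replicate 2, so R crossed both limits between samples of the same label too. The reverse held for 33 windows (0.309%).

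The 12 opened windows best measured by MspI, chosen by the highest of their smallest MspI counts and not on HpaII, show the range of the values. Positions are those of hg19. The window chr8:99954001-99955000 had 136 or more MspI tags in every library. Its R was 1.04 and 0.951 with AA and 0.00178 in the 769 control (95% interval 4.51e-05 to 0.00996), from 413, 102 and 1 HpaII tags. The PROM1 window, chr4:16085001-16086000, held 321 and 192 HpaII tags with AA and 0 in the control. R was 1.59 and 2.15 with AA and 0 in the control (interval to 0.0268). The AA mean of 1.87 ± 0.401 (SD, n = 2) was 86.3 times the R that a floor of 3 tags gives in the control. These are the windows of the 12 in which the control stood lowest.

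Most of the other best measured windows had a few control tags. R was 1.73 and 0.86 with AA and 0.0954 in the control in chr11:75379001-75380000, where the control interval of 0.0451 to 0.179 crosses the limit of 0.1. The values in chr2:239072001-239073000 were 0.536 and 0.782 with AA and 0.0118 in the control. For chr22:50453001-50454000 they were 0.677 and 1.74 with AA and 0.0573 in the control. HpaII tags in the control numbered 10, 1 and 6. The window of the TTLL8 start, chr22:50496001-50497000, had the most control tags of the 12, with 538 and 151 with AA and 24 in the control, and R of 3.96, 1.89 and 0.0966. TTLL8 belongs to the tubulin tyrosine ligase-like family, which adds glycine or glutamate chains to tubulin.

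Among the last 6 windows of the 12, R in chr4:48485001-48486000 was 0.704 and 0.873 with AA and 0.0251 in the control. R in chr5:138728001-138729000 was 1.86 and 1.45 with AA and 0.00636 in the control. R in chr3:119041001-119042000 was 1.43 and 0.689 with AA and 0.0322 in the control. In each of these the lower AA interval began above 0.1. The window of the ANKRD33B start, chr5:10564001-10565000, had R of 2.72 and 1.36 with AA and 0.0441 in the control. In chr16:87417001-87418000 it was 1.98 and 1.25 with AA and 0.0744 in the control. In chr8:142011001-142012000 it was 1.24 and 3.35 with AA and 0.0888 in the control. The replicate with the higher R was replicate 1 in 7 of the 12 and replicate 2 in the other 5.

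**Figure D2:**
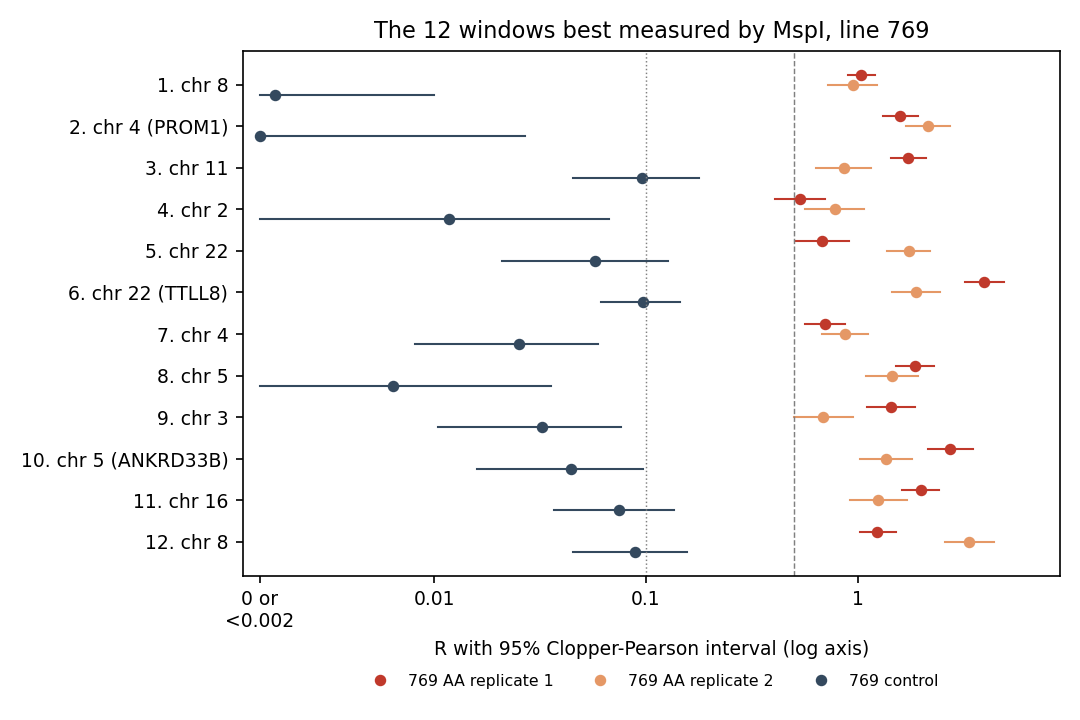
R in 769 (log axis) of the 12 opened windows best measured by MspI, in the order of the text, for both AA replicates and the control, with 95% Clopper-Pearson intervals from HpaII and MspI tags; values under 0.002 stand at the left edge, and the lines mark R of 0.1 (dotted) and 0.5 (dashed). In all 12 windows the control interval lies left of both AA intervals, and several control intervals cross 0.1.

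Inside the median window, HpaII tags with AA lay at several CCGG sites, though at fewer than in dense windows at large. The 289 windows hold 2979 listed sites. Of these, 1748 (58.7%) and 919 (30.8%) had an HpaII tag in the 769 AA samples and 241 (8.09%) in the 769 control, while MspI tagged 63.2%, 43.9% and 51.4% in the same DNA. The median window had HpaII tags at 6 and 3 sites with AA and at 1 in the control, beside 8, 5 and 4 over all dense windows. Tags at 3 or more sites were found in 276, 178 and 11 windows, and in 176 for both AA replicates at once. The site with most tags took, at the median, 47.1% and 68.4% of the window's HpaII tags in the AA samples, beside 35.7% and 50% over all dense windows. In the second AA sample 41 windows had all their HpaII tags at a single site, so for these R rests on 1 site. The top site was the same in both AA replicates in 97 of 289 windows (33.6%), and in both 786 AA replicates in 97 of 269 (36.1%).

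Sites that HpaII cut in both 769 AA samples were often those it cut in 786. An HpaII tag was present in both 769 AA samples at 740 sites, in 1 of them at 1187 and in neither at 1052. Both 786 AA samples, which the rule did not use, had a tag at 437 of the 740 (59.1%), 444 of the 1187 (37.4%) and 185 of the 1052 (17.6%). MspI tags in the 769 control stood at 63%, 49.2% and 45.6% of these sites, and the part of this in the HpaII shares was not tested. The same HpaII shares over the sites of all dense windows were not computed, so they are not shown to be particular to the opened windows. Of the 740 sites, 133 (18%) had an HpaII tag in the 769 control.

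**Figure D3:**
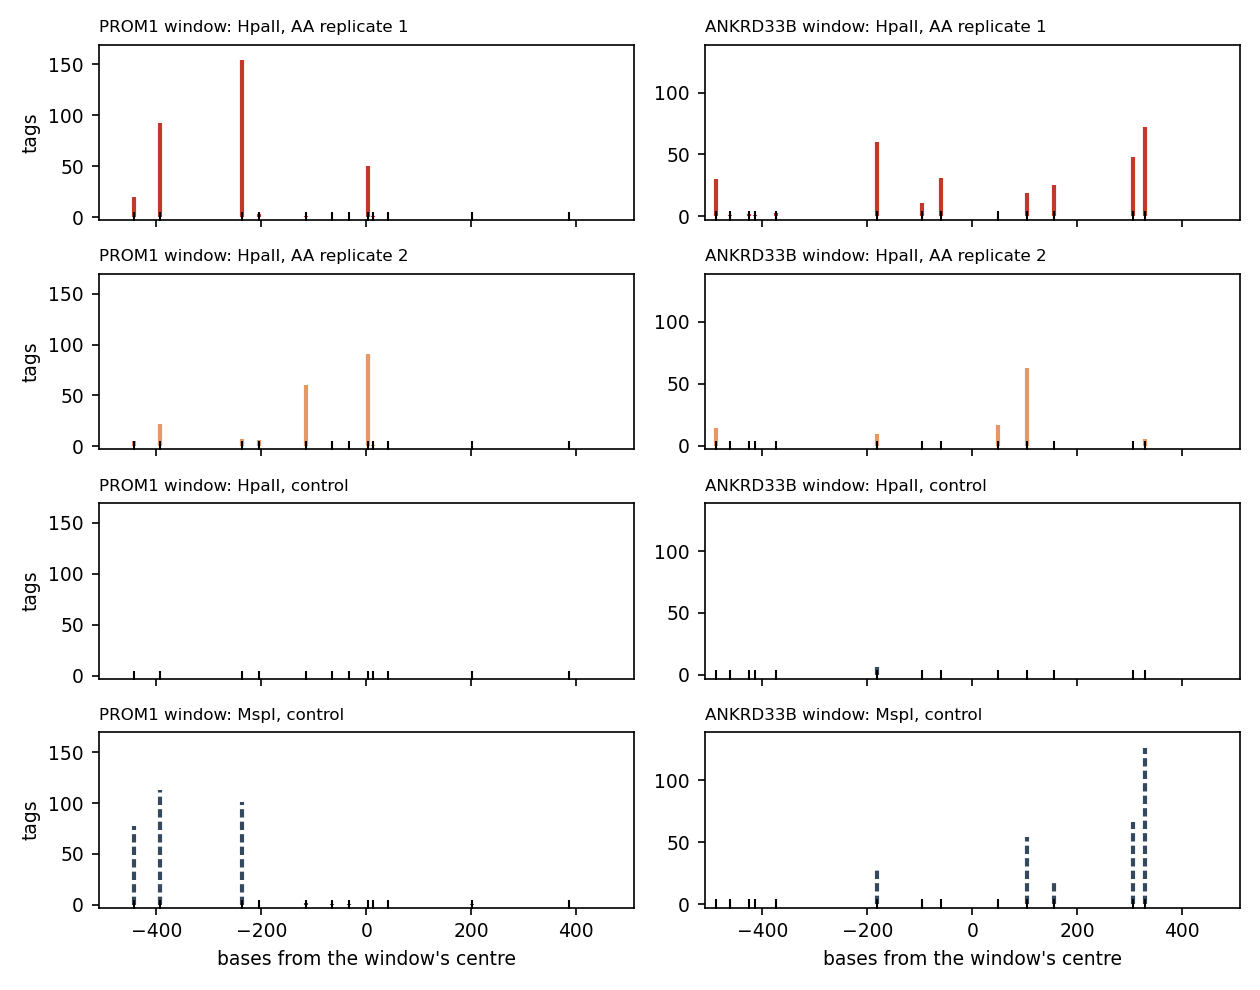
Tags at each listed CCGG site (black ticks) of the PROM1 window (left) and the ANKRD33B window (right) by distance from the window's centre in bases, for HpaII in both 769 AA samples and the control, and for MspI in the control (dashed). HpaII tags with AA stand at several sites along each window, the PROM1 window has none in the control and the ANKRD33B window has 6 at 1 site, while MspI cut both in the control.

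HpaII tags in the windows next to the opened ones were measured as well. On the lower-coordinate side, 232 adjoining 1 kb windows held a listed site and were not themselves opened windows. Pooled over these, R was 1.89 and 1.84 with AA and 1.76 in the 769 control. On the higher-coordinate side it was 1.53 and 1.43 with AA and 1.51 in the control. In the opened windows themselves it was 1.8 and 1.88 with AA and 0.0324 in the control. Pooled in this way, control and AA samples stood close together in the flanks. Pooled values weigh flanks with many tags most, and single windows varied, as the values over 3 kb below show. Of the 91 adjoining windows that also met the density and MspI conditions, 81 and 69 had R of 0.5 or more in the AA samples and 69 in the control, with medians of 2.13, 1.84 and 2.02.

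The 1074 dense windows with R of 0.1 or less in all 3 samples of 769 lay in other surroundings. Their flanks at 1 kb had R of 0.256 and 0.222 with AA and 0.212 in the control on the lower side, and 0.269, 0.258 and 0.23 on the higher side. Those of the 7334 windows with R of 0.5 or more in all 3 stood at 2.08, 1.83 and 1.92, and at 1.97, 1.82 and 1.89. For each class, neighbours of the same class were left out of the pool. Windows open throughout were thus left out of the flanks of their own class and kept in those of the opened windows. The same held for windows low throughout, so the pools are unlike. In these pools the flanks of the opened windows stood nearer to those of the windows open throughout, and this difference between classes was not tested. When R was taken over the 3 kb that hold an opened window and both its neighbours, its median was 1.76 and 1.72 with AA and 0.0965 in the control, and 113 of the 289 stayed within the limits. The control then had R of 0.1 or less in 145 and of 0.5 or more in 98.

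**Figure D4:**
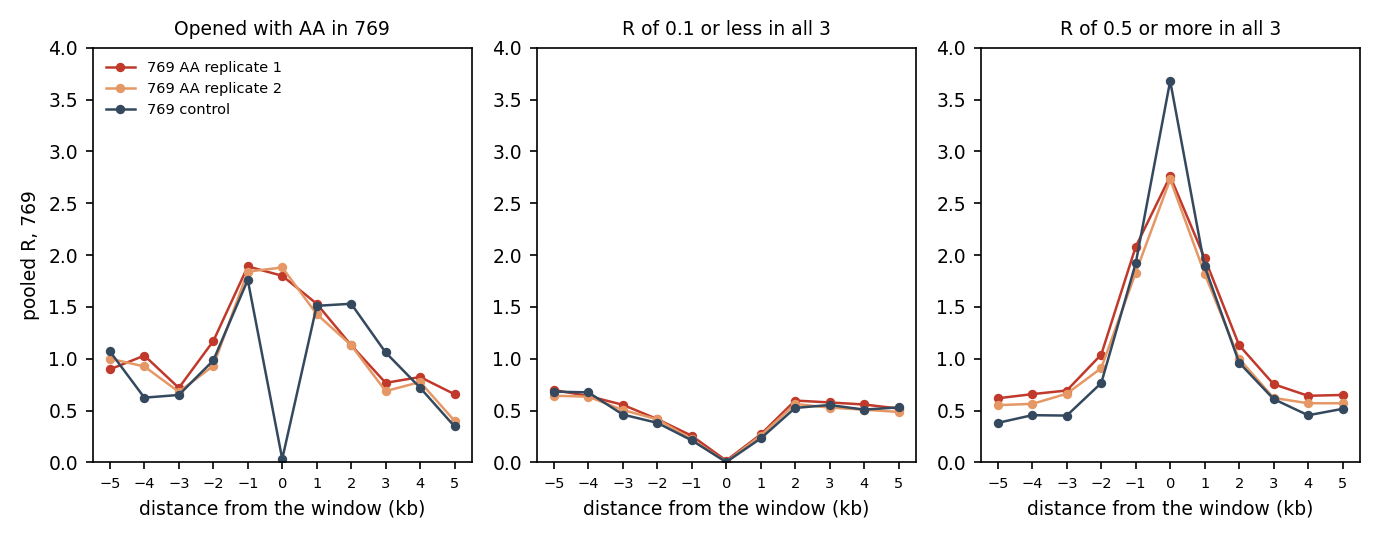
R pooled over windows at each distance (kb) from the dense windows opened with AA (left), with R of 0.1 or less in all 3 samples of 769 (middle) and with R of 0.5 or more in all 3 (right), for both 769 AA samples and the control. Neighbours of the same class were left out, so the flank pools of the panels are unlike. At distance 0 the values are those that defined the classes; at 1 kb on either side of the opened windows the control (1.76 and 1.51) stands beside the AA samples (1.43 to 1.89).

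Membership depended on where windows begin and on the limits. With windows moved by 500 bases, 178 of the 289 were overlapped by a window that met the density and MspI conditions, the control still had R of 0.1 or less in 80 of these and both AA samples 0.5 or more in 155, and 58 met all limits. Just inside the control limit lay chr22:18593001-18594000, at R of 3.7 and 0.61 with AA and 0.0999 in the control, and chr8:60032001-60033000, at 2.45, 10.3 and 0.0994. Just outside it lay chr2:66653001-66654000, at 1.87, 0.694 and 0.1005, and chr4:4389001-4390000, at 2.67, 1.27 and 0.1018. The windows nearest to the AA limit were chr22:23791001-23792000, at 0.502, 1.24 and 0, and chr7:2201001-2202000, at 0.503, 0.659 and 0, on the inside. On the outside were chr12:34495001-34496000, at 1.55, 0.4998 and 0.0735, and chr20:21081001-21082000, at 0.4998, 1.53 and 0. The values on both sides of each limit differ by less than the AA replicates of a window do.

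In 786, whose samples the rule did not use, the share of opened windows with high R after AA was near that of all dense windows. R was 0.5 or more in both 786 AA samples in 215 of 289 windows (74.4%), beside 77.7% of all dense windows. The share was 6.52% in the windows with R of 0.1 or less in all 3 samples of 769 and 93.5% in those with 0.5 or more in all 3. Among all windows low in the 769 control it was 24.4%. R of 0.1 or less in both 786 AA samples was found in 16 opened windows (5.54%), against 66.2% of those low throughout 769 and 9.37% of all. The median R of the opened windows was 1.37 and 1.53 in the 786 AA samples, beside 1.9 and 2.16 over all dense windows. Their pooled R was 1.28 and 1.54 in the 786 AA samples and 1.19 in the 786 control.

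**Figure D5:**
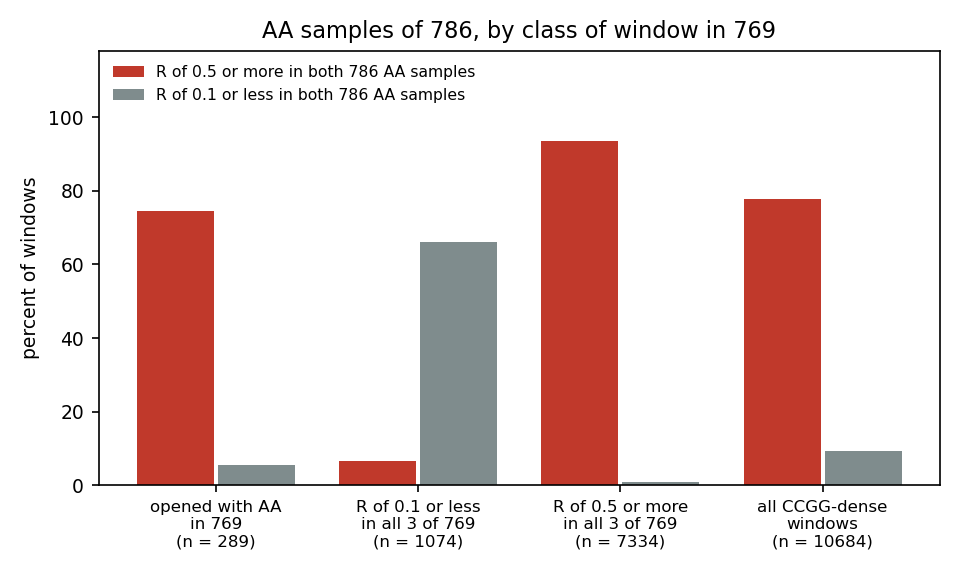
Percent of dense windows with R of 0.5 or more (red) and of 0.1 or less (grey) in both AA samples of 786, for windows opened with AA in 769, low in all 3 samples of 769, high in all 3, and all dense windows. The opened windows (74.4% and 5.54%) stand far from the windows low throughout 769 (6.52% and 66.2%) and close to all windows (77.7% and 9.37%).

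Of the 12 windows best measured by MspI, 7 had R of 0.5 or more in both 786 AA samples. In 786, R of chr11:75379001-75380000 was 3.41 and 0.852 with AA and 0 in the control. It was 0.986 and 1.7 with AA and 1.43 in the control in chr3:119041001-119042000. The ANKRD33B window had 2.47 and 2.5 with AA and 0.598 in the control, from 3 HpaII tags. In chr16:87417001-87418000 R was 2.56 and 2.03 with AA and 0.287 in the control, and in chr8:142011001-142012000 it was 1.63, 2.13 and 0.536. The TTLL8 window went the other way, with 0.556 and 0.91 with AA and 2.86 in the control (interval 1.13 to 6.06), from 129, 84 and 7 HpaII tags. The 786 control interval ended below both AA intervals in 2 of the 12, those of ANKRD33B and chromosome 16, and these intervals cover counting error only. The 4 windows with the lowest 786 AA values had R of 0.317 and 0.0226 (chr2:239072001-239073000), 0.394 and 0.0149 (chr22:50453001-50454000), 0.245 and 0 (chr4:48485001-48486000), and 0.0878 and 0 (chr5:138728001-138729000). Their 786 controls stood at 0.412, 0, 0 and 0. The window on chromosome 8 at 99954001 had 0.455 and 1.24 with AA and 0.0867 in the 786 control (interval 0.00219 to 0.485), from 1 tag.

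Whether AA raised HpaII cutting of these windows in 786 could not be settled at the depth of the 786 control. That library gave 0 HpaII tags in 150 of the 289 windows (51.9%), where an R of 1 would give a median of 1.91, and in none of the 150 did the floor of 3 tags lie under an R of 0.5. Both 786 AA samples were above the 786 control in 178 windows (61.6%), beside 50.7% of all dense windows, and both were below it in 62 (21.5%), beside 24.5%. Among the 139 windows with a tag in that control, both were above it in 48 (34.5%, beside 34.8%) and below it in 62 (44.6%, beside 40.5%). A window with 0 tags in that control counts as above wherever AA gave any tag in both samples. Pooled over all opened windows, the 717 HpaII tags of the 786 control gave an R of 1.19, where the 769 control had 0.0324. The median R of the opened windows in the 786 control was 0. With shares of dense-window tags the pooled R of the 786 control was 0.586. With each library's own top site left out of each window it was 0.306. At the median opened window with a tag, that site held 100% of the control's HpaII tags and 44% of its MspI tags. Leaving it out lowers this R by construction, so the 0.306 does not measure the control's level.

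The edgeR quasi-likelihood test of HpaII relative to MspI, AA against control in 786, called none of the 289 windows at an adjusted p under 0.05 and 18 of all 9977 windows tested (0.18%), with 2 higher (0.02%) and 16 lower (0.16%). The smallest adjusted p of an opened window was 0.181. The edgeR test gave an unadjusted p under 0.05 for 32 of the 289 opened windows and for 1561 of all 9977 (15.6%). DESeq2 called none of the opened windows, with 36 of them at an unadjusted p under 0.05, beside 1710 of all windows. The edgeR log2 fold change was positive in 213 of the 289 opened windows, with a median of 2.87 beside 1.17 over all windows tested. The share of positive values over all windows tested was not computed, so the 213 are not shown to exceed it. In 150 of the 289 the 786 control had 0 HpaII tags, and there the size of the fold change is not measured. With at least 10 HpaII tags in each 786 library, 17 opened windows remained, with a median log2 fold change of -0.56 beside 0.04 over all. A missing call at this depth does not show that the samples are alike. The difference between the lines was not tested.

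Gene starts by the promoter match lay in 47 of the opened windows (16.3%), beside 29.3% of all dense windows and 3.82% of those low in all 3 samples of 769. They lay in or within 1 kb of 70 opened windows (24.2%), beside 38.7% and 5.03%. These 70 windows bear 79 gene symbols, and 57 of the 70 (81.4%) had R of 0.5 or more in both 786 AA samples, beside 77.7% of all dense windows. The same share over all dense windows near a gene start was not computed, so the 81.4% is not shown to be particular to these 70. Promoters with fewer than 4 matching sites cannot be placed, so these are lower bounds in every class. The genes below were chosen by role after their values were seen.

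Among regulators of transcription was EPAS1, which encodes HIF-2α, a driver of ccRCC after loss of the von Hippel-Lindau protein. Its start lay within 1 kb of chr2:46525001-46526000, where R was 2.9 and 1.8 with AA and 0 in the 769 control, from 145, 37 and 0 HpaII tags and 39, 26 and 211 MspI tags. In 786 R was 0.889 and 4.77 with AA and 0 in the control, which had 58 MspI tags and a floor of 2.7. GFI1, a zinc finger repressor of blood and sensory cells, had its start within 1 kb of chr1:92948001-92949000, with R of 1.49 and 1.61 with AA and 0 in the 769 control. In 786 the same window stood at 1.53 and 3.62 with AA and at 3.1 in the control. Near the start of TCF7L1, a DNA-binding effector of Wnt signalling, R in chr2:85361001-85362000 was 3.3 and 1.51 with AA and 0.00666 in the 769 control. The window of HES5, chr1:2461001-2462000, had 1.4 and 0.829 with AA and 0.091 in the 769 control, and 2.55 and 2.59 with AA in 786, where the control had 2.18 from 5 HpaII tags (interval 0.695 to 5.22).

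Surface proteins and receptors included PROM1, whose window stood at 2.69 and 1.19 in 786 with AA and at 0 in the 786 control, with a floor of 0.968. The start of OSMR, a receptor subunit for oncostatin M, lay in chr5:38846001-38847000, with R of 3.37 and 2.91 with AA and 0 in the 769 control. That control had 24 MspI tags, so its R interval reached 0.355. A CCGG of the OSMR promoter just outside the window held 43 and 5 HpaII tags with AA and 68 in the 769 control, while another outside it had 31 and 96 with AA and 0 in the control. PTGER2 encodes a prostaglandin E2 receptor, and its window, chr14:52781001-52782000, had R of 1.64 and 0.523 with AA and 0.069 in the 769 control. There too a promoter CCGG just outside the window held 11 and 0 HpaII tags with AA and 159 in the 769 control, and the next had 2 and 0 with AA and 0 in the control. At OSMR, the outside site with 0 HpaII tags in the 769 control had 37 MspI tags there, so the outside sites differed in HpaII cutting. At PTGER2, the outside site with 0 HpaII tags had 0 MspI tags in that control too, so its cutting was not measured. Near the start of CLDN7, a tight junction claudin of distal nephron epithelium, R in chr17:7164001-7165000 was 1.48 and 0.859 with AA and 0.057 in the 769 control.

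For the extracellular matrix, the window of COL15A1, a basement membrane collagen, chr9:101706001-101707000, had R of 1.02 and 1.27 with AA and 0 in the 769 control. The EGFL7 window, chr9:139553001-139554000, had 3.02 and 3.69 with AA and 0 in the 769 control. In 786 the EGFL7 window had 1.85 and 1.33 with AA and 0 in a control with a floor of 1.76. In both windows the 769 control interval ended below 0.1, at 0.0984 and 0.0443. Among genes of metabolism and transport, ABCA1, the cholesterol exporter, had its start within 1 kb of chr9:107689001-107690000, with R of 2.51 and 3.72 with AA and 0.00763 in the 769 control. GPAM, which starts glycerolipid synthesis, lay in chr10:113943001-113944000, with 2.46 and 2.15 with AA and 0 in the 769 control. GART, an enzyme of purine synthesis, lay in chr21:34914001-34915000, with 5.35 and 3.35 with AA and 0.0178 in the 769 control. In 786 the GART window stood at 2.15 and 1.58 with AA and at 0 in a control with a floor of 1.89.

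A few opened windows stayed low in 786. The start of SPAG6, a protein of the ciliary axoneme, lay in chr10:22634001-22635000, with R of 0.553 and 1.73 with AA and 0 in the 769 control, from 51, 15 and 0 HpaII tags. In 786 it had 0 HpaII tags in all 3 samples, with MspI tags of 49 and 44 with AA and 105 in the control. The window within 1 kb of the RNF220 start, a ubiquitin ligase, was likewise at 0 in all 3 samples of 786, and at 0.672 and 0.854 with AA and 0 in the 769 control. These 2 are the ones with a placed gene start among the 16 windows low in both 786 AA samples.

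The opened windows were spread over the genome. Only 3 pairs began within 10 kb of each other, no group of 3 or more did, and the median distance between neighbours was 4032 kb. Chromosome 7 held 26, chromosome 16 held 22 and chromosome 1 held 21. As a share of dense windows they ran from 1.28% on chromosome 5 to 5.13% on chromosome 14, where 12 of 234 were opened. Their site span was shorter than that of dense windows at large, with a median of 11 beside 13, and 54.3% had a span of 10 or 11 beside 33.2%. They were also less deeply tagged by MspI, with medians of 55 and 40 tags in the 769 AA samples and 146 in the 769 control, beside 75, 57 and 167 over all dense windows. In the 42 promoters that lay wholly in an opened window, GGGCGG, the core of a GC box, was present on either strand in 88.1%, beside 86.2% of the 6839 placed promoters and 45% of all 35116. CCAAT was in 35.7%, 26% and 34.6%, and TATAAA in 2.38%, 2.62% and 11.5% of the same sets, where a GGGCGG may overlap a CCGG. All placed promoters hold at least 4 CCGG sites, and a match says nothing of a factor's binding.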

How the data were processed

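The deposited files hold, for each of 12 libraries, expected counts of tags per CCGG site; 8.23% to 11.5% of listed sites had values that were not whole (tolerance 1e-06). Per the labels' protocols, DNA was cut with HpaII or MspI, ligated to adapters, cut with EcoP15I, transcribed in vitro and amplified by PCR, with no molecular identifier described. The build is hg19 (the submitters' processing notes), and no source used here names an aligner. Mitochondrial tags and a viral contig stayed out of nuclear totals. Tags were summed in 1 kb windows, and R, its Clopper-Pearson interval at 95% and a floor of 3 tags were computed per sample.

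Rounded window sums of the 9977 dense windows with 10 or more HpaII tags summed over 6 libraries were fitted with edgeR 4.0.16 (R 4.3.3), with terms for DNA sample, enzyme, enzyme by line and enzyme by AA in each line. Factors were TMM within each enzyme, and p-values were adjusted by Benjamini-Hochberg over all windows. Each line has 1 control, so both lines share 1 estimate of spread, on 2 residual degrees of freedom. The fit was tested on simulated data. Alternatives included DESeq2 1.42.0 and other limits, scalings, windows and samples left out. Python 3.11.15 with numpy 2.4.6, pandas 2.3.3, scipy 1.17.1 and matplotlib 3.10.9 did the rest.

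Windows were named by this rule: the 12 best measured by MspI (at most 2 per 10 kb), groups of 3 or more within 10 kb, those called in 786, and those nearest each limit. The rule allowed gene names only from an annotation of hg19; the promoter match by CCGG spacing was added after the files were seen, and genes were picked after their values were seen. Chromosome 8 promoters were not analysed here. The members and lists were chosen with earlier results of these data known.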

Additional observations from a re-analysis of the deposited data

Results flagged for a closer look

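In 2 of the 12 best measured windows both 786 AA samples lay below the 786 control while both 769 AA samples lay above theirs. In chr22:50496001-50497000, the window of the TTLL8 start, R was 0.556 and 0.91 in the 786 AA samples and 2.86 in the 786 control, from 7 HpaII tags at 1 site in that control. In chr2:239072001-239073000 R was 0.317 and 0.0226 in the 786 AA samples and 0.412 in the 786 control, from 2 HpaII tags. The difference between the lines was not tested in either window, and the edgeR adjusted p for 786 was 0.486 and 0.733.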

How the results depend on the processing

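The count of 289 opened windows was 191 with at least 20 MspI tags, 37 with a site span of at least 15 and 164 with R of 1 or more in both AA samples, each a part of the 289 by construction. Without 1 AA replicate of 769 it was 367 to 497. Over 3 kb, chosen after seeing the data, 113 met the limits. Within 1.5 times were 280 with shares of tags in dense windows (154 of the 289 among them), 432 with the top site of each window left out (136 shared), 236 with tagged sites in place of tags (103 shared) and 289 with the 769 HpaII libraries thinned (264 shared). The 786 count of 18 calls was 10 with TMM over all libraries, 117 without the HpaII filter, 9 with 10 HpaII tags in each 786 library, 53 with HpaII alone, 71 with the libraries of 786 only, 48 by DESeq2 and 17 to 95 with 1 DNA sample left out. No opened window was called in any of these 13 alternatives, and the causes were not tested. The AA samples share numbers between lines, but their deviations did not go together (r = -0.0108 over 9977 windows), and a replicate block gave 22 calls. Open in both 786 AA samples were 141 of the 191 windows with 20 MspI tags, 228 to 236 of 289 with 1 AA sample left out, 164 of 289 with shares of dense-window tags, 172 of 257 without each window's top site and 178 of 289 with the 786 HpaII libraries thinned, beside 215 of 289. Pooled R in 786 was 0.725 (AA mean) and 0.586 (control) with shares of dense-window tags. The pooled R of the 786 control was 1.02 with 20 MspI tags and 0.306 without each window's top site. Wherever a top site was left out it was each library's own, so HpaII and MspI could lose different sites. The number of windows tagged at 3 or more sites in both 769 AA samples was 122 to 176 in all settings. Single control libraries and the 170479 nuclear HpaII tags of the 786 control limit every comparison. The fit without the 786 control was not run, since no AA effect of 786 is then left.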

Other observations

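The same limits applied to 786 were met by 2268 dense windows, against 289 in 769. The median R of these 2268 in 769 was 2.53 and 2.02 with AA and 2.48 in the control, and the 786 control had 170479 nuclear HpaII tags. HpaII gave no tag in 39.4% of all dense windows in the 786 control, and R there was 0.1 or less in 39.5%. The control limit was thus met almost only by windows without a tag, and the 2268 cannot be read as more opening in 786. The opposite pattern in 769, R of 0.1 or less in both AA samples and 0.5 or more in the control, was met by 26 dense windows, with medians of 0.028 and 0 with AA and 1.42 in the control. In 786, 8 of the 26 (30.8%) had R of 0.5 or more in both AA samples.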
